A study of Mus musculus with 34 samples.

Results

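The glutathione and NRF2 antioxidant genes described here are 41 mouse genes chosen by name: 21 glutathione transferases, 5 genes of glutathione synthesis and reduction, 2 glutathione peroxidases, 2 enzymes that supply NADPH, 4 genes of the thioredoxin and peroxiredoxin system, the quinone reductase Nqo1 and the UDP-glucose dehydrogenase Ugdh, catalase and 2 superoxide dismutases, and the regulators Nfe2l2 and Keap1. Of these 41 genes, 39 were found by symbol among the 24951 genes counted in hepatocytes and the 26233 counted in macrophages, and the other 2, Gstp1 and Gstp2, were not analysed here. A filter on low counts left 37 of the 39 for testing in hepatocytes (G6pdx and Slc7a11 did not pass) and 36 in macrophages (Gsta1, Gsta2 and Nqo1 did not pass).

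Glutathione is a tripeptide that liver cells hold in large amounts, and glutathione transferases join it to reactive electrophiles so that these can be exported. Glutathione peroxidases use it to reduce peroxides, glutathione reductase (Gsr) restores the oxidised form with NADPH, and thioredoxin and peroxiredoxins form a parallel chain. NRF2, the product of Nfe2l2, is held at a low level by KEAP1 until oxidants or electrophiles release it, and it then binds antioxidant response elements in front of many of these genes. In the liver, carbon tetrachloride (CCl4) is turned into a reactive radical by the cytochrome P450 enzymes of pericentral hepatocytes.

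All mice were homozygous for floxed Yap and Taz, on a mixed B6;129P background. Knockout mice also carried Opn-iCreERT2, a tamoxifen-inducible Cre driven by the osteopontin gene, which is active in biliary epithelial cells, and control mice were siblings without it. Every mouse, control or knockout, received 1.6 mg/kg tamoxifen on 5 days at 7 to 8 weeks of age and then 3 weeks without treatment, and CCl4 mice received 1 ml/kg and were sampled 48 h later. Biliary cells were not among the cells sequenced, so neither cell type measures the deletion itself. The hepatocyte groups were 6 uninjured controls, 5 uninjured knockouts, 3 controls after CCl4 and 4 knockouts after CCl4. Macrophages, sorted as F4/80 and CD45 positive cells, came from 4 mice per group in the same 4 groups.

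Total counts of 3′ tags ran from 931496 to 7535053 for hepatocyte libraries and from 596380 to 5128587 for macrophage libraries. Levels are CPM, the counts of a gene per 1e6 counts of the library after TMM scaling. The floor was taken as 3 counts. Per 1e6 counts of the library total, before TMM scaling, it stood for 0.398 to 3.22 in hepatocytes and 0.585 to 5.03 in macrophages. Because 1 tag is counted per transcript end whatever its length, CPM needs no length correction, but how well each 3′ end is primed differs between genes. The sequencing files formed a first and a second numbered series: the first held 5 hepatocyte libraries, all of control mice, and 2 macrophage libraries, and every knockout library lay in the second, so a difference between series cannot be told apart from part of any knockout comparison that uses the first. The descriptions of 1 hepatocyte library (mouse 15) and 1 macrophage library (mouse 11), both after CCl4, name the knockout whereas their genotype and group labels name the control, and both were kept as controls. Hepatocyte libraries carried the defining markers of their cell type, with a sum over 10 hepatocyte markers of 55410.0 to 129300.0 CPM, and macrophage libraries carried those of Kupffer cells, with 5707 to 22240.0 CPM over 10 markers, beside 393 to 31790.0 CPM of hepatocyte markers. In sorted cells that are sequenced in bulk, fewer cells of a kind and less RNA per cell cannot be told apart. A call below is an adjusted p under 0.05 in edgeR's quasi-likelihood test, adjusted by Benjamini and Hochberg over all genes tested, and errors on log2 fold changes are standard errors.

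In uninjured control hepatocytes the members covered a wide range of levels, from about the floor to the highest levels of liver enzymes. The most abundant was Gpx1, the cytosolic glutathione peroxidase, at 3119 to 4289 CPM with a median of 3553, followed by the microsomal transferase Mgst1 at 1684 to 3158 CPM with a median of 2461. The ranges of these 2 overlapped. Cat (catalase), Gsta3, Sod1 (cytosolic superoxide dismutase) and Gstm1 came next, with medians of 1709, 1673, 1470.0 and 1303 CPM, and the ranges of these 4 genes overlapped. Members at the low end were Gsta1 at 0 to 7.43 CPM with a median of 1.14, Nqo1 at 4.25 to 10.8 CPM with a median of 5.19 and the phospholipid peroxidase Gpx4 at 4.30 to 18.8 CPM with a median of 8.16. G6pdx, the entry enzyme of the NADPH-producing pentose phosphate route, had 8 counts over the 6 libraries, and Slc7a11, the cystine importer, had 0 counts in all 6.

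Several members share sequence with other genes, which bears on how 3′ reads can be assigned. Of the 50-base windows in the last 500 bases of their transcripts, 90.02% for Gsta1 and 62.1% for Gsta2 also occur in another gene, mainly Gm3776 and Gm10639. For Gpx4 the share was 89.9%, through the pseudogene Gpx4-ps2, while for Gstm3 it was 0.890% and for Gstm1 22.96%. Values of Gsta1, Gsta2 and Gpx4 are therefore uncertain, since how the authors counted such reads is not given in the sources used here. Neighbouring genes form clusters (GRCm38): Gstm1 to Gstm7 lie on chromosome 3 between 107895821 and 108044894, Gsta4, Gsta1 and Gsta2 on chromosome 9 between 78182774 and 78355788, and Gstt3, Gstt1 and Gstt2 on chromosome 10 between 75774115 and 75837424.

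Promoter sequence was searched for the core of the antioxidant response element, the site that NRF2 binds with small MAF partners. The search used TGACNNNGC on both strands of the RefSeq windows (GRCm38.p6) from 250 bases before to 50 bases after each annotated start. Of the 37 members with a window, 13 (35.1%) held a match in any window, against 3781 of 27025 genes (13.99%), and the members had 51 windows in all. The 13 were Gsta3, Gstm5, Gstm7, Mgst1, Gclm, Pgd, G6pdx, Txnrd1, Srxn1, Prdx1, Ugdh, Sod1 and Nfe2l2. A match is a run of letters and not a measured binding site. Examples are shown for 1 gene that rose in knockout hepatocytes (Ugdh), 3 that fell with CCl4 (Gsta3, Gclm and Sod1) and 1 that was not called in either (Prdx1), in the direction of the gene, with the match in capitals. The strand in brackets is that of the gene. The examples lie at chr5:65435941-65435999 (minus strand, match starting 132 bases before the start) for Ugdh, chr1:21240439-21240497 (plus strand, match starting 121 bases before the start) for Gsta3, chr3:122245398-122245456 (plus strand, match starting 134 bases before the start) for Gclm, chr4:116685441-116685499 (plus strand, match starting 133 bases before the start) for Prdx1 and chr16:90220681-90220739 (plus strand, match starting 56 bases before the start) for Sod1.
Ugdh: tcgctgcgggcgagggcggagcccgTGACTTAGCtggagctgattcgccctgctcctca
Gsta3: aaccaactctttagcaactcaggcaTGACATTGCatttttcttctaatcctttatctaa
Gclm: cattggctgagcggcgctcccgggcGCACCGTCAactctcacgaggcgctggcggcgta
Prdx1: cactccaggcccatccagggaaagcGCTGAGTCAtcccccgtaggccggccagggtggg
Sod1: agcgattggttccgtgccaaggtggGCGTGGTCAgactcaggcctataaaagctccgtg

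In control hepatocytes most of the glutathione transferases (12 of 19 tested) and Cat, Gpx1, Sod1 and Sod2, which remove peroxide and superoxide, fell after CCl4, and Gss, Srxn1, Txnrd1 and Nfe2l2 rose. After CCl4, 17 of the 37 tested members were lower and 4 were higher, with a median log2 fold change of -0.56 over the 37 (-0.01 over the 9679 genes tested). In the same comparison 13.7% of all genes were called higher and 13.7% lower. The called falls covered every transferase class tested, which leaves out that of Gstp1 and Gstp2. They ranged from 0.64 (Sod1) to 2.99 (Gsta2) on the log2 scale, and the plot of CCl4 changes by genotype shows them beside the rises.

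Among the alpha class, whose enzymes act on aldehydes and lipid peroxidation products, Gsta3 was the most abundant, at 1458 to 2572 CPM with a median of 1673 without CCl4 and at 436, 697 and 698 CPM in the 3 libraries after it. The groups did not overlap, and Gsta3 fell by 1.602 ± 0.26 (adjusted p = 0.000117) on the log2 scale. Gsta2 was at 14.02 to 81.7 CPM with a median of 31.7 without CCl4 and 0.709, 4.20 and 8.09 CPM after it, a fall of 2.99 ± 0.64 (adjusted p = 0.00243). Neither Gsta1 (0.72 ± 0.63, adjusted p = 0.435) nor Gsta4 (-0.31 ± 0.31, adjusted p = 0.516) was called.

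In the mu class, which conjugates epoxides and other electrophiles, 4 of 7 genes fell. Gstm6 was at 5.15, 11.3 and 12.9 CPM after CCl4 against 15.9 to 81.2 CPM with a median of 37.9 without it, and fell by 2.09 ± 0.47 (adjusted p = 0.00284). Gstm7 lay between 32.97 and 34.1 CPM after CCl4 and at 54.04 to 103 CPM with a median of 70.6 without it, with no overlap, and fell by 1.11 ± 0.22 (adjusted p = 0.000652). The CCl4 values of Gstm6 and Gstm7 all lay below the lowest control value. Gstm1, the most abundant of the class, was at 436, 792 and 998 CPM against 955 to 1556 CPM with a median of 1303 and fell by 0.79 ± 0.29 (adjusted p = 0.0459). Gstm2 was at 15.1, 22 and 25.9 CPM against 13.8 to 75.1 CPM with a median of 52.5 and fell by 1.34 ± 0.41 (adjusted p = 0.0212). The groups overlapped for Gstm1 and Gstm2, for Gstm2 through control mouse 19. Gstm3 showed a difference of -1.79 ± 0.88, adjusted p = 0.149, which did not pass the test.

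All 3 genes of the kappa, omega and zeta classes fell. Gstk1, of mitochondria and peroxisomes, was at 66.5, 80.3 and 112 CPM against 134 to 316 CPM with a median of 199 and fell by 1.26 ± 0.29 (adjusted p = 0.00286). Gsto1, a thiol transferase, was at 41.4, 43.5 and 67 CPM against 83.5 to 129 CPM with a median of 106 and fell by 1.08 ± 0.22 (adjusted p = 0.000839). Gstz1, which isomerises maleylacetoacetate in tyrosine breakdown, was at 234, 267 and 269.9 CPM against 433 to 626 CPM with a median of 533 and fell by 1.05 ± 0.19 (adjusted p = 0.000324). In none of these genes did the libraries after CCl4 overlap with those without it. In the theta class Gstt3 was at 35.8, 46.1 and 60.3 CPM after CCl4 against 106 to 384 CPM with a median of 201 and fell by 2.25 ± 0.42 (adjusted p = 0.000689). The lowest control value of Gstt3 was above every value after CCl4, and the same held for Gstt1, at 93.4, 119.8 and 123 CPM against 151 to 246 CPM with a median of 206. Gstt1 fell by 0.90 ± 0.20 (adjusted p = 0.00203), and Gstt2 was not called (-0.56 ± 0.24, adjusted p = 0.0933). Of the microsomal enzymes Mgst1 fell, from 1684 to 3158 CPM with a median of 2461 to 628, 1267 and 1647 CPM (-1.05 ± 0.28, adjusted p = 0.00861), and Mgst3 was not called (0.18 ± 0.37, adjusted p = 0.766).

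Of the 6 members that remove peroxide and superoxide, 4 fell after CCl4 (Cat, Gpx1, Sod1 and Sod2) and Gpx4 and Prdx1 were not called. Catalase, the peroxisomal enzyme that splits hydrogen peroxide, was at 471, 493.1 and 591 CPM after CCl4 and at 1380.0 to 1978 CPM with a median of 1709 without it, and Cat fell by 1.68 ± 0.27 (adjusted p = 8.54e-05). Gpx1 was at 1109, 1224 and 1479 CPM against 3119 to 4289 CPM with a median of 3553 and fell by 1.51 ± 0.24 (adjusted p = 6.52e-05). The mitochondrial superoxide dismutase Sod2 had the smallest adjusted p of all members: 129, 141 and 150.3 CPM against 255 to 305 CPM with a median of 288, a fall of 1.01 ± 0.15 (adjusted p = 4.11e-05). Sod1 was at 695, 955 and 1112 CPM against 1196 to 1643 CPM with a median of 1470.0 and fell by 0.64 ± 0.18 (adjusted p = 0.0119). For Cat, Gpx1, Sod2 and Sod1 the groups did not overlap. Gpx4, uncertain because of its pseudogene, was at 3.88, 5.34 and 25.5 CPM after CCl4 against 4.30 to 18.8 CPM with a median of 8.16 (0.40 ± 0.54, adjusted p = 0.64), with overlap, and Prdx1 at 745, 979 and 1093 CPM against 663 to 1443 CPM with a median of 933 (-0.09 ± 0.23, adjusted p = 0.814).

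Within glutathione synthesis the steps moved in different directions. Gclm, the regulatory subunit of glutamate-cysteine ligase, was at 199, 216 and 231 CPM after CCl4 and 334 to 375 CPM with a median of 344 without it and fell by 0.69 ± 0.16 (adjusted p = 0.0031), whereas the catalytic subunit Gclc was at 359, 370.1 and 395 CPM against 232 to 591 CPM with a median of 304 (0.05 ± 0.28, adjusted p = 0.921). Gss, glutathione synthetase, was at 36.99, 44.5 and 68.1 CPM against 20.1 to 29.8 CPM with a median of 23.9 and rose by 1.03 ± 0.24 (adjusted p = 0.00302). Gclm, the lowest control value of which was above every CCl4 value, and Gss, the reverse, showed no overlap between groups. Slc7a11, untested, was at 0 counts in all 6 uninjured control libraries and had 3, 6 and 6 counts in the 3 libraries after CCl4, which are at or near the floor.

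The other members that rose were Srxn1, Txnrd1 and Nfe2l2. Srxn1, sulfiredoxin, which repairs over-oxidised peroxiredoxins, was at 51.1, 74.4 and 97.1 CPM after CCl4 and 27.6 to 47.7 CPM with a median of 35.1 without it, a rise of 1.003 ± 0.22 (adjusted p = 0.00183). Txnrd1, cytosolic thioredoxin reductase, was at 179, 202 and 206 CPM against 130.0 to 148 CPM with a median of 139 and rose by 0.50 ± 0.14 (adjusted p = 0.0122). Nfe2l2, which encodes NRF2, was at 147, 182 and 215 CPM against 86.99 to 132 CPM with a median of 101 and rose by 0.76 ± 0.20 (adjusted p = 0.00714). In all 3 genes every CCl4 library was above every library without it. Keap1 (-0.01 ± 0.20, adjusted p = 0.98), Txn1 (-0.40 ± 0.24, adjusted p = 0.246), Nqo1 (0.42 ± 0.37, adjusted p = 0.436), Ugdh (0.05 ± 0.23, adjusted p = 0.892) and Gsr (-0.18 ± 0.25, adjusted p = 0.657) were not called. Pgd (0.47 ± 0.25, adjusted p = 0.179) was not called either, although its 3 values after CCl4, 24.98, 26.9 and 29.4 CPM, all lay above the 16.97 to 22.8 CPM with a median of 19.2 without it.

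Some of these calls rested on single libraries. With the library of mouse 15 moved to the knockout group, as its description states, 16 of the 21 calls held, and those of Txnrd1 (0.45, adjusted p = 0.0651), Nfe2l2 (0.61, adjusted p = 0.0620), Gstm1 (-0.84, adjusted p = 0.114), Gstm2 (-1.39, adjusted p = 0.0592) and Mgst1 (-0.75, adjusted p = 0.121) did not. The same 5 genes were not called when mouse 15 was left out. Without mouse 12, also a control after CCl4, Sod1 (-0.48, adjusted p = 0.0950), Gstm1 (-0.52, adjusted p = 0.241) and Gstm2 (-1.15, adjusted p = 0.0990) were not called. The call of Gstm1 was also lost with DESeq2 (adjusted p = 0.0567). In edgeR it was lost with RLE size factors (adjusted p = 0.0648), no filter on low counts (0.0696) and the earlier quasi-likelihood method (0.0521). Leaving out uninjured control mouse 2, 6, 7, 8 or 9, or knockout mouse 5, 13, 14, 18 or 21, ended it too. Gstm2 was not called with no filter (adjusted p = 0.0634) or without mouse 7 (0.0501), and Txnrd1 was not called with no filter (0.0776). All of these values kept the direction they had over all libraries.

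**Figure D1:**
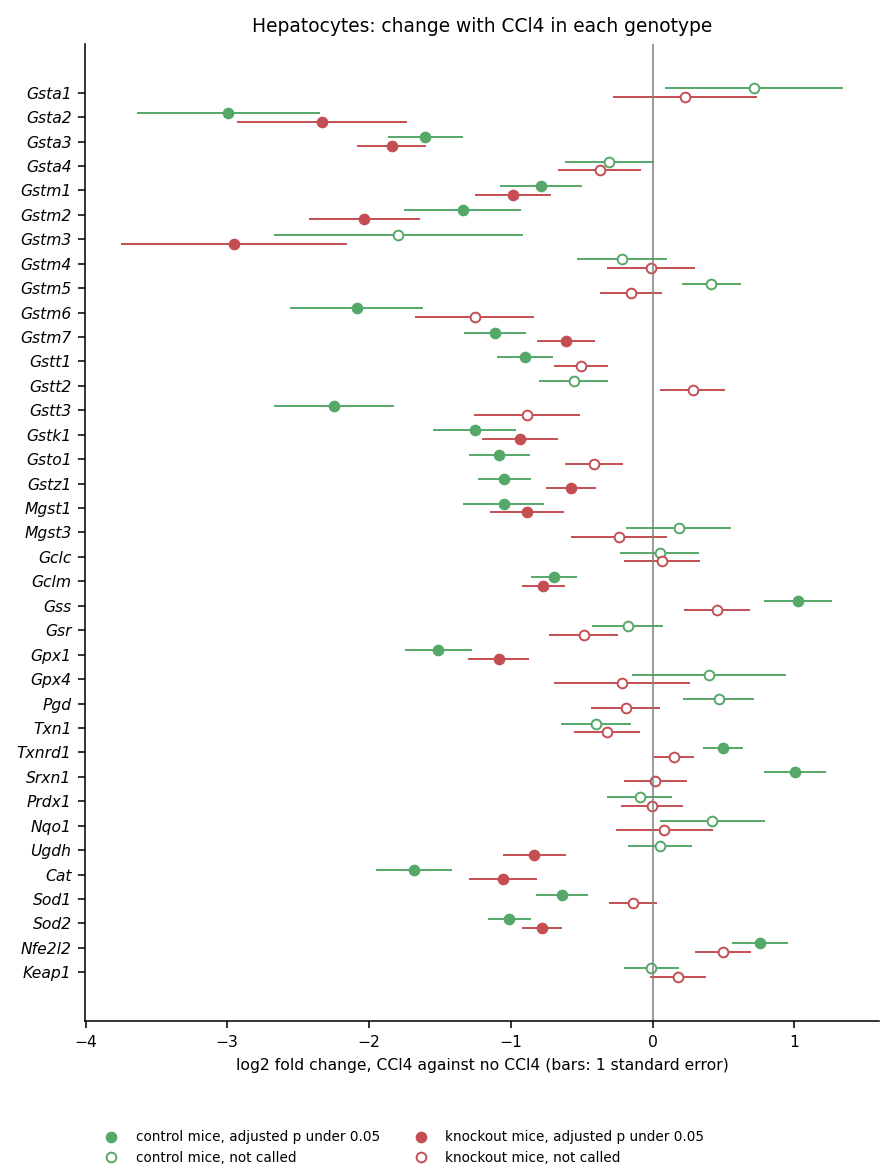
Log2 fold change between hepatocyte libraries after CCl4 and without it for the 37 tested members, in control mice (green) and knockout mice (red); bars are 1 standard error, filled points have an adjusted p under 0.05. Of the filled points in control mice 17 lie left of 0 and 4 right of it, and in knockout mice all 14 lie left of 0.

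Genes next to these pathways, taken from lists drawn up with earlier results known, moved as follows. Of 15 other NRF2 target genes, 1 rose (Osgin1, 0.83) and 2 fell (Me1, -1.23, and Abcc3, -1.23). Of 17 other thioredoxin-fold and peroxide enzymes, 1 rose (Gpx7, 2.32) and 7 fell, among them Prdx6 (-1.02), Txnrd3 (-1.42) and Prdx5 (-0.73). Of 12 genes of cysteine supply and glutathione turnover, 7 fell, among them Ahcy (-2.97), Gnmt (-3.28), Glo1 (-1.005) and Mat1a (-2.12), and 0 rose. Of 6 partners and regulators of NRF2, 2 fell (Nfe2l1, -0.71, and Mafg, -0.77), and the transferase relative Gstcd rose (1.30). In the same libraries 7 of 8 pericentral hepatocyte markers fell, with a median of -3.81 and a sum over 8 markers of 559.9 to 731 CPM after CCl4 against 2750.0 to 7806 CPM without it, and 5 of 10 general hepatocyte markers fell with a median of -0.66. The part of the pericentral loss in the members' falls was not tested. Markers of other cells were higher after CCl4 in these libraries. Stellate and fibroblast markers were higher for 4 of 7 (median 2.85), with sums of 12.95 to 338.1 CPM without CCl4 and 350.1 to 994 CPM after it, and Kupffer cell and macrophage markers for 3 of 9 (median 2.15), with sums of 8.50 to 189.9 and 285.7 to 334.6 CPM. Proliferation markers were higher for 6 of 6 (median 7.604), with sums of 2.71 to 19.1 and 821.7 to 1131 CPM, biliary markers for 2 of 5 (median 1.6025), with sums of 38.9 to 101.8 and 90.2 to 249.5 CPM, and the 1 tested monocyte marker was higher by 1.71. The Kupffer cell markers Clec4f, Timd4 and Vsig4 were above 0 in all 3 libraries after CCl4. Of the members that rose here, Txnrd1 and Nfe2l2 were higher in macrophages than in hepatocytes of uninjured control mice, Gss was lower and Srxn1 was not called. That call of Txnrd1 was lost in edgeR with the mouse number as a replicate block (adjusted p = 0.0541). The part of these other cells in the members' rises and falls was not tested.

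In knockout mice without CCl4, 13 of the 37 tested members were higher than in control hepatocytes and 1 was lower, while 4.64% of all genes tested were called higher and 3.23% lower. The median log2 fold change was 0.34 over the members and 0.01 over all genes. Without overlap between groups 8 members were higher and 0 lower, against 1.79% and 1.75% of all genes. The 13 were Gsta1, Gsta4, Gstm1, Gstm2, Gstm3, Mgst3, Gss, Gsr, Gpx4, Pgd, Srxn1, Nqo1 and Ugdh, and the 1 lower was Keap1. Of these 14 calls, 2 (Pgd and Srxn1) passed with the file series as a term and 1 (Srxn1) within the second series, where 3 control and 5 knockout libraries remain. All 14 kept their direction in both fits. Shares of all genes called in these 2 fits are not given, so whether members lost calls more often than other genes cannot be read here. The 6 control libraries are also those of the CCl4 comparison above, so the 2 comparisons are not independent.

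Gstm3, a mu class transferase, showed the largest difference: its 5 knockout libraries held 230.3, 254, 306, 336 and 2585 CPM and the 6 control libraries 19.1 to 73.97 CPM with a median of 40.9. The groups did not overlap, and the log2 fold change was 4.02 ± 0.72, adjusted p = 0.00584. The value of 2585 CPM came from mouse 20, and without that library the log2 fold change was 2.63 (adjusted p = 0.00241). It was 3.70 (adjusted p = 0.0732) with a term for the file series and within the second series 3.76 (adjusted p = 0.285). Its neighbours Gstm2 and Gstm1 differed by less. Gstm2 was at 80.1, 96.01, 129, 146 and 195 CPM against 13.8 to 75.1 CPM with a median of 52.5 (1.29 ± 0.33, adjusted p = 0.0253), and Gstm1 at 1891, 2069, 2283, 2726 and 4694 CPM against 955 to 1556 CPM with a median of 1303 (1.09 ± 0.24, adjusted p = 0.0101). Neither overlapped between groups, and mouse 20 was again the highest of the knockout libraries for both. The other 4 mu class genes were not called, although Gstm5 showed no overlap, at 15.9, 17.03, 17.5, 19.7 and 22.4 CPM against 9.02 to 14.8 CPM with a median of 12.9, with log2 fold changes between 0.08 (Gstm4) and 0.72 (Gstm6).

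In the alpha class, Gsta4, which prefers the lipid peroxidation product hydroxynonenal, was at 144, 186, 218, 226 and 324 CPM in knockout and 47.6 to 138 CPM with a median of 87.8 in control hepatocytes (1.31 ± 0.27, adjusted p = 0.00733), without overlap. Gsta1 was at 3.82, 6.85, 7.19, 8.66 and 25.2 CPM against 0 to 7.43 CPM with a median of 1.14 (2.41 ± 0.56, adjusted p = 0.0122), and its groups overlapped through control mouse 19. The abundant Gsta3 (-0.02 ± 0.21, adjusted p = 0.968) and Gsta2 (0.52 ± 0.47, adjusted p = 0.518) were not called. Mgst3, the less abundant microsomal member, was at 15.4, 23.1, 32.9, 35.7 and 45.2 CPM against 5.12 to 18.8 CPM with a median of 9.61 (1.66 ± 0.33, adjusted p = 0.00573), with overlap, while Mgst1 differed by 0.04 ± 0.23, adjusted p = 0.95. None of the 6 theta, kappa, omega and zeta class genes was called, and their log2 fold changes ran from -0.40 (Gstt3) to 0.12 (Gstk1).

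For glutathione synthesis and reduction, Gss was at 33.4, 38.02, 45.5, 57.3 and 77 CPM in knockout and 20.1 to 29.8 CPM with a median of 23.9 in control libraries, without overlap (1.04 ± 0.22, adjusted p = 0.00806). Gsr was at 41.1, 57.9, 65.9, 69.4 and 74.5 CPM against 25.4 to 45.1 CPM with a median of 37.8 (0.75 ± 0.22, adjusted p = 0.039), with 1 knockout library inside the control range. Gclm (0.33 ± 0.14, adjusted p = 0.136) and Gclc (-0.36 ± 0.24, adjusted p = 0.358) were not called, although all 5 knockout values of Gclm, 383, 392, 413, 493.1 and 505 CPM, were above the highest control value of 375 CPM. Pgd, the second NADPH-producing enzyme of the pentose phosphate route, was at 20.9, 31.2, 38.6, 43.7 and 72.96 CPM against 16.97 to 22.8 CPM with a median of 19.2 (1.09 ± 0.22, adjusted p = 0.00733). The lowest knockout value of Pgd lay within the control range. Fitted with a term for file series, Pgd gave a log2 fold change of 1.18 (adjusted p = 0.0482), and within the second series 1.20 (adjusted p = 0.147). G6pdx, untested, was at 0.722, 1.27, 3.43, 4.44 and 9.25 CPM in knockout libraries and 0 to 2.35 CPM with a median of 0.711 in control libraries, from 31 and 8 counts in all.

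Srxn1 was called in each of these fits: 46.2, 57.4, 68.8, 81.7 and 83.7 CPM in knockout libraries against 27.6 to 47.7 CPM with a median of 35.1 in control libraries, a log2 fold change of 0.87 ± 0.20, adjusted p = 0.013. It was 1.05 (adjusted p = 0.0384) with the series as a term and 1.13 (adjusted p = 0.0438) within the second series, whose controls reached 33.4 CPM. The lowest knockout library fell inside the range of the first-series controls. Txnrd1 (0.20 ± 0.13, adjusted p = 0.315), Txn1 (0.44 ± 0.21, adjusted p = 0.185) and Prdx1 (-0.41 ± 0.20, adjusted p = 0.196), the other thioredoxin genes, were not called.

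Several called members differed between the uninjured control libraries of the 2 series. Gsta4 was at 47.6 to 81.2 CPM in first-series and 94.4 to 138.5 CPM in second-series controls, without overlap. The same held for Pgd (19.6 to 22.75 and 16.97 to 18.8 CPM), Srxn1 (36.7 to 47.7 and 27.6 to 33.4 CPM) and Keap1 (56.7 to 80.02 and 46.95 to 55.2 CPM). Gpx4 differed in this way too. It was at 23.1, 23.1, 23.6, 39.2 and 42.02 CPM in knockout libraries, 4.30 to 5.72 CPM in the 3 first-series controls and 10.6 to 18.8 CPM in the 3 second-series controls. The log2 fold change was 1.89 ± 0.47, adjusted p = 0.0233 over all libraries, 0.81 (adjusted p = 0.172) with the series as a term and 0.98 (adjusted p = 0.232) within the second series. Nqo1, the quinone reductase often used as a readout of NRF2, was at 9.38, 11.3, 13.7, 17.8 and 23.7 CPM against 4.25 to 10.8 CPM with a median of 5.19 (1.31 ± 0.34, adjusted p = 0.0231), and 0.70 (adjusted p = 0.354) with the series as a term. Ugdh, which makes UDP-glucuronate for glucuronidation, was at 102, 127, 158, 165 and 243 CPM against 63.6 to 107 CPM with a median of 81.4 (0.92 ± 0.20, adjusted p = 0.00845), and 0.77 (adjusted p = 0.105) with the series as a term. The knockout ranges of Nqo1 and Ugdh overlapped with those of the controls.

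Of the regulators, Keap1 was at 37.5, 37.6, 39.6, 40.3 and 51.8 CPM in knockout and 46.95 to 80.02 CPM with a median of 55.9 in control libraries, with overlap, and fell by 0.58 ± 0.18 (adjusted p = 0.0479). With the series as a term the value was -0.27 (adjusted p = 0.504). Nfe2l2 was at 109.5, 121, 142, 172 and 206 CPM against 86.99 to 132 CPM with a median of 101 and was not called (0.48 ± 0.18, adjusted p = 0.0916). Cat (-0.43 ± 0.21, adjusted p = 0.203), Sod1 (-0.26 ± 0.15, adjusted p = 0.28), Sod2 (-0.22 ± 0.12, adjusted p = 0.276) and Gpx1 (-0.18 ± 0.19, adjusted p = 0.576) were not called, and all 4 had log2 fold changes below 0. Against the second-series controls alone, 8 of the 13 higher members (Gsta4, Gstm1, Gstm2, Gstm3, Gss, Gpx4, Pgd and Srxn1) showed no overlap, against 36.1% of the 449 genes called higher. With the library of mouse 15 moved to the knockout group, Gsr (0.75, adjusted p = 0.0588) and Keap1 (-0.58, adjusted p = 0.0728) were no longer called.

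**Figure D2:**
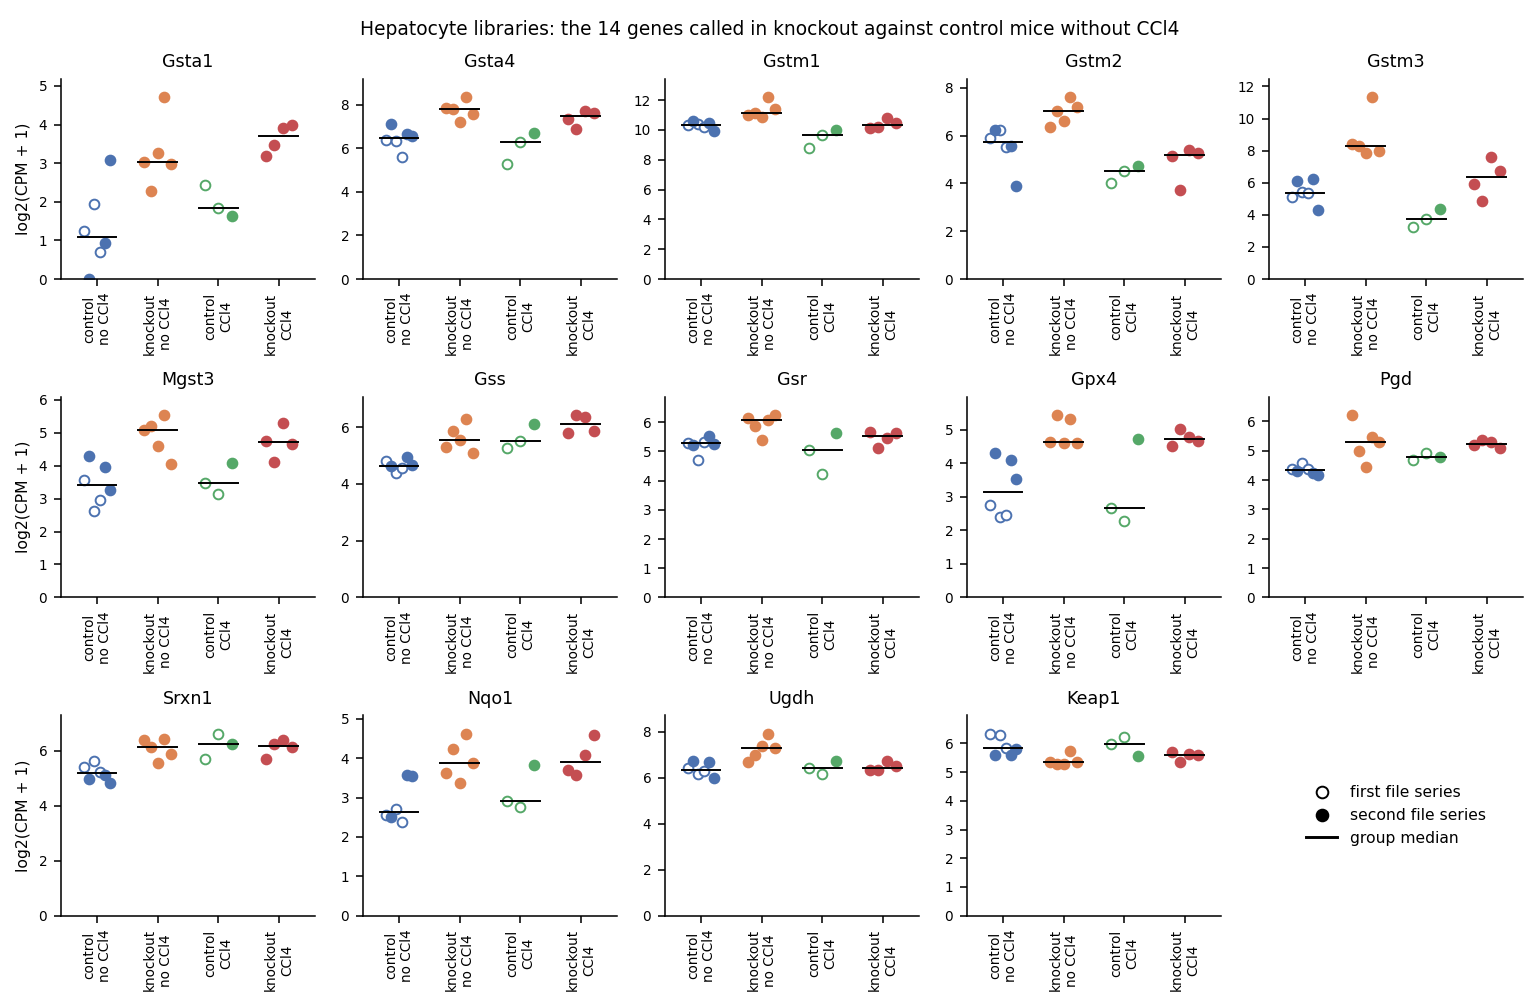
Level of the 14 members called between knockout and control hepatocytes without CCl4, as log2(CPM + 1), in each of the 18 hepatocyte libraries by group; open points are first-series libraries, filled points second-series ones and lines group medians. All knockout points are filled, and for Gstm3 mouse 20 stands at 2585 CPM, far above the other 4 knockout libraries without CCl4.

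**Figure D3:**
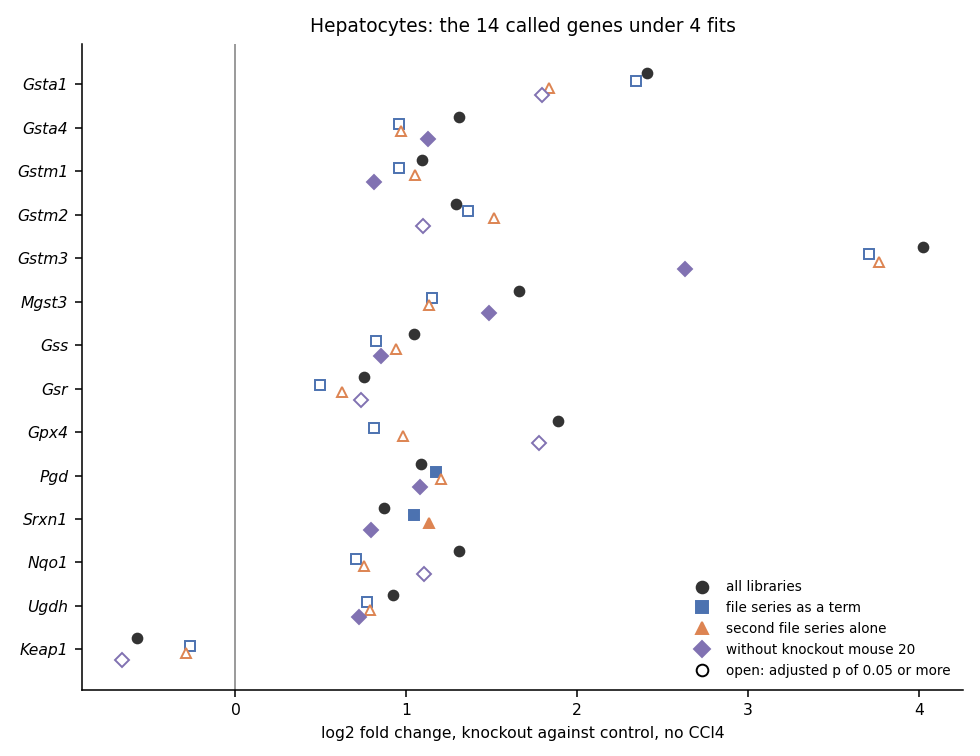
Log2 fold change between knockout and control hepatocytes without CCl4 for the same 14 members under 4 fits: all libraries (circles), the file series as a term (squares), the second series alone (triangles) and without knockout mouse 20 (diamonds); filled symbols have an adjusted p under 0.05. Every gene stays on its side of 0, and filled squares remain for Pgd and Srxn1 and a filled triangle for Srxn1.

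The neighbouring lists held few calls in this comparison. Of 15 other NRF2 target genes 0 rose and 1 fell (Me1, -0.69), of 17 thioredoxin-fold and peroxide enzymes 1 rose (Gpx3, the secreted peroxidase, 2.84), of 12 genes of cysteine supply and glutathione turnover 0 were called, and of 6 partners and regulators of NRF2 1 fell (Nfe2l1, -0.68). These counts come from edgeR's quasi-likelihood test.

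Markers of other cells moved in the same comparison. Of 9 tested Kupffer cell and macrophage markers 6 were higher in knockout hepatocyte libraries, with a median log2 fold change of 2.72, and the sum over the list was 8.50 to 189.9 CPM in control and 113 to 1154 CPM in knockout libraries, with the highest sum in knockout mouse 4. Of the defining markers Clec4f and Timd4 were at 0 in 1 control library (mouse 9) and above 0 in every knockout library, and Vsig4 was above 0 in every library. Proliferation markers were higher for 3 of 6, with sums of 2.71 to 19.1 CPM in controls and 7.94 to 216 CPM in knockout libraries, and biliary markers for 2 of 5, with sums of 38.9 to 101.8 and 81.5 to 303.5 CPM, mouse 20 being the highest in both lists. Pancreatic acinar markers were lower for 4 of 5, with sums of 0.902 to 2495 CPM in controls, mouse 6 being the highest, and 0 to 5.14 CPM in knockout libraries. Of the 13 higher members, 7 (Gsta4, Gstm1, Gstm2, Gstm3, Mgst3, Gss and Ugdh) were lower in macrophages than in hepatocytes of uninjured control mice, 1 (Pgd) was higher there, 3 (Gpx4, Gsr and Srxn1) were not called and 2 were not tested. The part of these cells in the members' rise was not tested. Without mouse 20, 8 of the 13 were called: Gsta4, Gstm1, Gstm3, Mgst3, Gss, Pgd, Srxn1 and Ugdh.

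Of the 13 members whose promoter windows, shown above, hold the antioxidant response element core, 3 (Pgd, Srxn1 and Ugdh) were called higher in knockout hepatocytes without CCl4 and 3 (Srxn1, Txnrd1 and Nfe2l2) rose with CCl4 in control mice. Gsta3, Gstm7, Mgst1, Gclm and Sod1, with a match too, fell with CCl4. Gstm1, Gstm2, Gstm3, Gsta1, Mgst3, Nqo1, Gss and Gpx4, all higher in knockout hepatocytes, held no match in these windows. Gsta4 and Gsr, higher too, had no window to search. Over all 37 tested members, with a match or without, 13 were called higher in knockout hepatocytes without CCl4. G6pdx, which held a match, was not tested in hepatocytes. Whether calls go with a match was not tested.

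After CCl4, 0 members were called between knockout and control hepatocytes by edgeR, 0 by DESeq2, and 11 of the 37 had an unadjusted p under 0.05, as had 12.8% of all genes tested. Over all genes 0.124% were called higher and 0.0517% lower. The values still lay mostly on 1 side: 31 of the 37 log2 fold changes were above 0, with a median of 0.43, against 4892 of 9679 genes and a median of 0.01. In 9 members (Gsta1, Gsta4, Gstm1, Gstm3, Gstm6, Gstm7, Gstt2, Mgst3 and Pgd) every knockout library was above every control library, and for Gclc every one was below, while over all genes 5.67% were so separated upward and 5.84% downward. The comparison had 3 control libraries, 2 of them of the first series.

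Gsta4 was at 117, 159, 196 and 206 CPM in knockout and 38.1, 75.9 and 102 CPM in control hepatocytes after CCl4 (1.24 ± 0.34, adjusted p = 0.169). Gstm3 was at 27.9, 59.5, 107 and 191 CPM against 8.58, 12.1 and 19.5 CPM (2.87 ± 0.95, adjusted p = 0.258). Gstm7 was at 40.1, 57.4, 70.4 and 75.1 CPM against 32.97, 33.9 and 34.1 CPM (0.84 ± 0.23, adjusted p = 0.169). None of these 3 passed the test, and Gsta4 and Gstm7 shared the smallest adjusted p of the members. Without the control library of mouse 16, the lone second-series control after CCl4, Gsta4 (1.57, adjusted p = 0.0476) and Gpx4 (2.49, adjusted p = 0.0230) were called, and without knockout mouse 20 of the uninjured group Gstm3 was (2.85, adjusted p = 0.0456). No member of the other pathway lists was called.

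CCl4 in knockout hepatocytes lowered 14 of the 37 members and raised 0, against 6.84% of all genes lower and 7.02% higher, with a median of -0.41. The 14 were Gsta2, Gsta3, Gstm1, Gstm2, Gstm3, Gstm7, Gstk1, Gstz1, Mgst1, Gclm, Gpx1, Ugdh, Cat and Sod2. This comparison uses knockout libraries of the second series alone. Without overlap between groups 10 members were lower and 0 higher, against 6.37% and 6.72% of all genes. Gsta3 was at 367, 465.9, 523 and 685 CPM after CCl4 and 1295, 1681, 1745, 1822 and 2600.4 CPM without it, and fell by 1.84 ± 0.24 (adjusted p = 5.88e-05). Ugdh, not called in control mice, was at 79.8, 80.8, 90.5 and 105 CPM after CCl4 and 102, 127, 158, 165 and 243 CPM without it and fell by 0.83 ± 0.22 (adjusted p = 0.0145). Gstm3 was at 27.9, 59.5, 107 and 191 CPM against 230.3, 254, 306, 336 and 2585 CPM and fell by 2.95 ± 0.80 (adjusted p = 0.0228). The genes that rose in control mice were not called here: Gss (0.45 ± 0.23, adjusted p = 0.227), Srxn1 (0.02 ± 0.22, adjusted p = 0.967), Nfe2l2 (0.50 ± 0.20, adjusted p = 0.1) and Txnrd1 (0.15 ± 0.14, adjusted p = 0.537). Leaving out knockout mouse 18, 13 or 14 after CCl4 left 8, 9 and 9 calls.

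Of the 6 members that remove peroxide and superoxide, Gpx1, Cat and Sod2 fell with CCl4 in knockout hepatocytes as well, and Sod1 (-0.14 ± 0.17, adjusted p = 0.646), Gpx4 (-0.22 ± 0.48, adjusted p = 0.817) and Prdx1 (-0.00 ± 0.22, adjusted p = 0.992) were not called. Gpx1 was at 1024, 1582, 1692 and 1714 CPM after CCl4 and 2065, 2869, 2884, 3936 and 4203 CPM without it and fell by 1.09 ± 0.21 (adjusted p = 0.00166). Catalase was at 408, 566, 606 and 787 CPM against 728, 1044, 1170.2, 1171 and 2032 CPM, and Cat fell by 1.06 ± 0.24 (adjusted p = 0.00529). Sod2 was at 124, 133, 139 and 173 CPM against 222, 226, 239, 265 and 266 CPM and fell by 0.78 ± 0.14 (adjusted p = 0.000861). Gpx1 and Sod2 showed no overlap between the groups, while Cat did overlap. Gclm was at 202, 239, 270.2 and 316 CPM against 383, 392, 413, 493.1 and 505 CPM, without overlap, and fell by 0.77 ± 0.15 (adjusted p = 0.00186).

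The other transferases called in knockout hepatocytes were Gsta2, Gstm1, Gstm2, Gstm7, Gstk1, Gstz1 and Mgst1. Gsta2 was at 3.87, 6.01, 9.29 and 26.3 CPM after CCl4 and 30.8, 44.8, 52.8, 64.4 and 80.5 CPM without it and fell by 2.33 ± 0.60 (adjusted p = 0.0155). Gstm2 was at 12.4, 34.1, 37.5 and 41.3 CPM against 80.1, 96.01, 129, 146 and 195 CPM and fell by 2.03 ± 0.39 (adjusted p = 0.00207). Gstm1 was at 1127, 1152, 1433 and 1806 CPM against 1891, 2069, 2283, 2726 and 4694 CPM and fell by 0.99 ± 0.27 (adjusted p = 0.0174). None of these 3 overlapped between the groups. Mgst1 was at 1116, 1196, 1365 and 1743 CPM against 1791, 2088, 2356, 2907 and 3386 CPM and fell by 0.89 ± 0.26 (adjusted p = 0.0277), without overlap, as was the case for Gstz1 (-0.58 ± 0.17, adjusted p = 0.0315). Gstk1 (-0.94 ± 0.27, adjusted p = 0.0242) and Gstm7 (-0.61 ± 0.20, adjusted p = 0.0482) fell with overlapping groups. The Gstm7 call was lost with DESeq2 (adjusted p = 0.0545). In edgeR it was lost with RLE size factors (0.0584), no filter (0.132) and the earlier quasi-likelihood method (0.0514), and in many omissions of 1 library. Within the second series Gstm7 (0.0725), Gstm3 (0.0853) and Gstz1 (0.0624) were not called by edgeR. Gsta2 (0.0516), Gstm3 (0.0585) and Gstz1 (0.0829) lost their calls with no filter. Pericentral markers fell for 7 of 8 in these libraries too, with a median of -3.21. Proliferation markers were higher for 6 of 6 (median 3.94), with sums of 7.94 to 216 CPM without CCl4 and 750.8 to 1033 CPM after it, and biliary markers for 2 of 5 (median 0.76), with sums of 81.5 to 303.5 and 162.3 to 288.9 CPM. Kupffer cell and macrophage markers were called for 0 of 9 (median -1.165), and the part of these cells in the members' falls was not tested.

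Whether CCl4 acted differently in the 2 genotypes was tested by the interaction, in which edgeR and DESeq2 each called 0 members and 5 of the 37 had an unadjusted p under 0.05 (10.2% of all genes), against 0.0207% of all genes called higher and 0.196% lower. The smallest adjusted p, 0.208, was that of Srxn1, with a log2 difference of -0.98 ± 0.31 between the CCl4 change in knockout and that in control mice. Ugdh followed, at -0.89 ± 0.31, adjusted p = 0.268. Without CCl4 the Srxn1 level of knockout hepatocytes, 46.2, 57.4, 68.8, 81.7 and 83.7 CPM, overlapped with that of control hepatocytes after CCl4, 51.1, 74.4 and 97.1 CPM. Among the other lists 2 of 15 NRF2 target genes rose with CCl4 in knockout mice (Osgin1, 0.997, and Fth1, ferritin heavy chain, 0.69), and 5 of 12 genes of cysteine supply and glutathione turnover fell, Gnmt (-3.26), Ahcy (-2.25), Mat1a (-2.28) and Cth (-1.80) among them. Of the 17 thioredoxin-fold and peroxide enzymes, Gpx7 rose (1.97) and Txnrd3 fell (-1.58).

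In uninjured control mice the members differed strongly between cell types. Of 36 tested members, 28 were lower and 5 were higher in macrophage than in hepatocyte libraries, against 27.0% of all genes lower and 34.8% higher, with a median log2 ratio of -2.04 (0.16 over all genes). The 5 higher were G6pdx, Nfe2l2, Pgd, Txnrd1 and Txn1. G6pdx was at 24.7, 30.3, 46.3 and 55.2 CPM in the 4 macrophage libraries and 0 to 2.34 CPM in the 6 hepatocyte libraries, where it rests on 8 counts (6.29 ± 0.57, adjusted p = 6.42e-08). Pgd was at 61.5, 69.7, 72.6 and 96.3 CPM against 16.9 to 22.03 CPM (1.97 ± 0.19, adjusted p = 8.35e-07), so both NADPH-producing enzymes were higher in macrophages. Nfe2l2 was at 358, 381, 763 and 871 CPM against 86.3 to 128 CPM (2.50 ± 0.26, adjusted p = 1.77e-06). Txnrd1 (0.78 ± 0.20, adjusted p = 0.00337) and Txn1 (0.76 ± 0.23, adjusted p = 0.0113) were higher by less. With the mouse number as a replicate block, neither Txnrd1 (0.57, adjusted p = 0.0541) nor Txn1 (0.53, adjusted p = 0.0805) was called by edgeR.

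Among the 28 lower members were all 18 tested glutathione transferases, the microsomal ones included, with log2 ratios from -3.04 (Gstt3) to -0.55 (Gsto1). The 10 hepatocyte markers, all lower too, had log2 ratios from -3.29 to -2.52 and a median of -2.88, so many transferases were lower by about as much as hepatocyte markers were, as the plot of ratios by gene shows. Gsto1 (-0.55 ± 0.21, adjusted p = 0.0363), Gpx1 (-0.62 ± 0.17, adjusted p = 0.00491), Sod2 (-0.64 ± 0.19, adjusted p = 0.00948) and Keap1 (-0.87 ± 0.24, adjusted p = 0.00701) were lower by much less than any hepatocyte marker. Gsr (-0.30 ± 0.26, adjusted p = 0.343), Gpx4 (-0.19 ± 0.52, adjusted p = 0.774) and Srxn1 (0.08 ± 0.32, adjusted p = 0.852) were not called. How much of each transferase signal in macrophage libraries comes from hepatocyte RNA was not tested. Of the neighbouring lists, 7 of 17 NRF2 target genes were higher in macrophages, among them Cbr3 (3.90), and 5 were lower, among them Abcc2 (-2.95), Osgin1 (-2.59) and Me1 (-2.55). Of 13 genes of cysteine supply and glutathione turnover 10 were lower, among them Glo1 (-2.24), Cbs (-3.31) and Mat1a (-2.81), and 2 were higher, of which Slc3a2 (2.68) is the partner chain of Slc7a11. Of 16 thioredoxin-fold and peroxide enzymes 8 were lower, among them Prdx6 (-2.77), Msra (-2.07), Msrb1 (-1.41) and Txn2 (-1.42), and 1 was higher. Of 7 partners and regulators of NRF2, 4 were higher: Bach1 (1.23), Mafk (1.34), Maff (1.43) and Mafg (0.47). All 3 tested other members of the transferase family, Alox5ap, Ltc4s and Hpgds, were higher, by 8.70, 8.01 and 5.72.

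**Figure D4:**
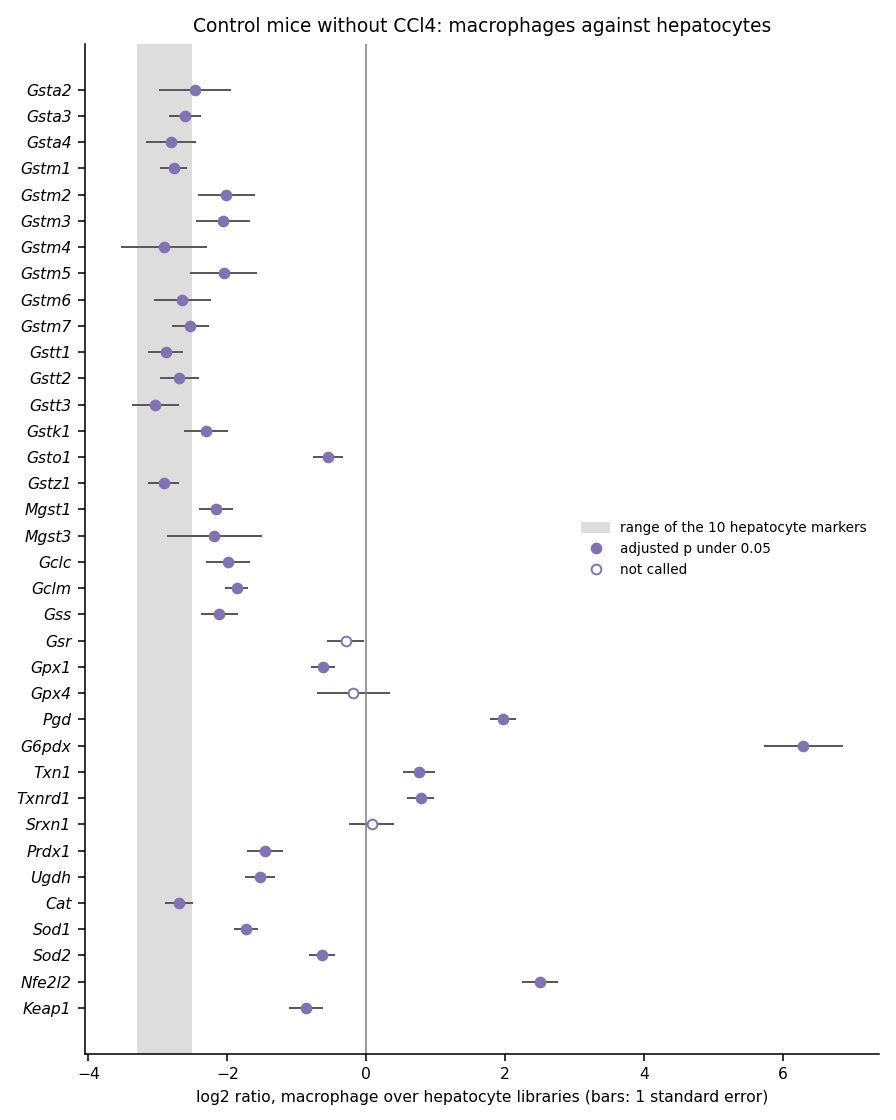
Log2 ratio of macrophage over hepatocyte libraries of uninjured control mice (4 and 6 libraries) for the 36 tested members; bars are 1 standard error, filled points have an adjusted p under 0.05, and the grey band is the range of the 10 hepatocyte markers, -3.29 to -2.52. G6pdx stands at 6.29 on the right, and many glutathione transferases lie in or beside the band.

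CCl4 in control macrophages lowered 7 of 36 members and raised 1, against 6.39% of all genes lower and 6.77% higher, with a median of -0.50. The 7 were Gsta3, Gstm6, Gstt3, Gstk1, Mgst1, Gpx1 and Cat, and the 1 higher was Slc7a11. Gsta3 was at 6.37, 11.5, 88.6 and 142 CPM after CCl4 and 346, 369.8, 456 and 538 CPM without it, and fell by 2.79 ± 0.86 (adjusted p = 0.0459). Mgst1 was at 43.7, 48.7, 115 and 419 CPM against 535, 764, 802 and 957 CPM and fell by 2.31 ± 0.70 (adjusted p = 0.0446). Cat was at 65.5, 66.4, 126 and 189 CPM against 288, 354, 359.9 and 439 CPM and fell by 1.70 ± 0.38 (adjusted p = 0.00791). These 3 genes were lower in every library after CCl4 than in any without it. Gstt3 was at 0.910, 2.62, 8.30 and 16.7 CPM against 31.9, 37.4, 37.9 and 46.95 CPM and fell by 2.25 ± 0.50 (adjusted p = 0.00672). Gstm6 was at 0, 0, 2.08 and 3.41 CPM against 6.37, 7.38, 10.4 and 12.9 CPM and fell by 2.41 ± 0.72 (adjusted p = 0.0304). Gstk1 was at 12.7, 17.8, 24.5 and 35.3 CPM against 39.5, 45.6, 59.6 and 92.4 CPM and fell by 1.38 ± 0.40 (adjusted p = 0.0293). None of the 7 called falls had overlapping groups. Of all 36 tested members 9 were lower and 2 higher without overlap, against 9.61% and 9.57% of all genes.

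Hepatocyte markers moved with these falls. Their sum was 18460.0 to 23160.0 CPM in control macrophage libraries without CCl4 and 393 to 15380.0 CPM after it, the 10 markers had log2 fold changes from -3.04 to -0.81 with 1 of 10 called lower, and 6 of 7 pericentral markers were lower with a median of -3.20. Alb, Apoa1 and Apoa2 were above 0 in every macrophage library. The part of hepatocyte RNA in the falls of Gsta3, Mgst1 and the others was not tested. Gpx1, which was lower in macrophage than in hepatocyte libraries by 0.62 on the log2 scale, was at 1314, 1319, 1806 and 1964 CPM after CCl4 and 3056, 3187, 3349.9 and 3611 CPM without it, and fell by 1.04 ± 0.24 (adjusted p = 0.00708).

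Slc7a11, which exchanges cystine for glutamate, was at 5.89, 11.4, 15.5 and 25.2 CPM in control macrophages after CCl4 and 0, 3.35, 3.98 and 4.85 CPM without it, a rise of 2.01 ± 0.59 (adjusted p = 0.0301) with no overlap. Gss, also higher in every library after CCl4, was not called (0.96 ± 0.51, adjusted p = 0.224). Nfe2l2 (-0.47 ± 0.29, adjusted p = 0.309), Srxn1 (0.19 ± 0.45, adjusted p = 0.821) and Txnrd1 (0.10 ± 0.34, adjusted p = 0.879), which rose in control hepatocytes, were not called in macrophages. Whether the change in macrophages differed from that in hepatocytes was not tested. In the neighbouring lists Prdx2 (1.09), Prdx4 (1.14) and Gpx7 (2.17) rose and Txnip, the thioredoxin inhibitor, fell (-2.46), out of 18 thioredoxin-fold and peroxide enzymes. Of 11 genes of cysteine supply and glutathione turnover 4 fell, namely Cth (-3.67), Gnmt (-3.57), Hagh (-1.44) and Ahcy (-1.91), and 0 rose, while of 17 NRF2 target genes 2 fell (Ephx1, -1.07, and Cbr1, -1.14), and Gstcd rose (1.597). Monocyte markers rose for 4 of 5, with sums of 154 to 366 CPM without CCl4 and 626 to 809 CPM after it. The Kupffer cell and macrophage sum was 14460 to 18790 CPM without CCl4 and 7745 to 14430 CPM after it. Proliferation markers summed to 86.04 to 145.0 and 983.2 to 1277 CPM, and biliary markers to 79.79 to 182.4 and 232.0 to 434.2 CPM. Endothelial sums overlapped, at 1009 to 1538 and 174.8 to 1047 CPM. The part of these shifts in the members' changes was not tested.

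The number of calls in this comparison depended on single libraries. It was 3 without control mouse 9 (no CCl4) or 15 (CCl4), 4 without mouse 16, 5 without mouse 6, 7 or 11, and 5 with the library of mouse 11 moved to the knockout group as its description states. Slc7a11 kept its call without mouse 11 (2.34) and was not called without mouse 9, 15, 16 or 6. The edgeR calls of Gsta3 and Mgst1 were both lost with RLE size factors (adjusted p = 0.0541 and 0.0545) and with the file series as a term (0.0586 and 0.0565). Both were lost too within the second series (0.106 and 0.149) and with edgeR's earlier quasi-likelihood method (0.0580 and 0.0541). Leaving out control mouse 6, 7, 8, 9, 11, 15 or 16 also ended both calls. Both genes stayed below 0 throughout.

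Between knockout and control macrophages edgeR called 0 members without CCl4 (0.0555% of all genes higher, 0.111% lower) and 0 after CCl4 (0.00925% higher, 0.0555% lower), DESeq2 called 0 and 0, and 8 of 36 members had an unadjusted p under 0.05 in each, against 1295 of all 10815 genes without CCl4 and 871 after it. Without CCl4 the smallest adjusted p was that of Gsr, glutathione reductase: 55, 98.3, 100.4 and 102 CPM in knockout and 30.2, 30.3, 39.6 and 64.8 CPM in control libraries (1.08 ± 0.32, adjusted p = 0.168). In 7 members (Gsta3, Gstm6, Gstm7, Gstt3, Gstz1, Mgst1 and Cat) every knockout library was below every control library, and in Gstm5 every one was above, against 5.06% and 3.77% of all genes. The hepatocyte marker sum was 4277 to 14510.0 CPM in these knockout libraries and 18460.0 to 23160.0 CPM in the controls. Neutrophil markers summed to 191.7 to 317.4 CPM in the knockout and 71.85 to 141.0 CPM in the control libraries. Stellate and fibroblast markers summed to 778.6 to 3763 and 276.4 to 702.5 CPM. The part of these cells in the members' values, Gsr included, was not tested. After CCl4 Slc7a11 had the smallest adjusted p, with 1.35, 1.55, 2.94 and 5.90 CPM in knockout and 5.89, 11.4, 15.5 and 25.2 CPM in control libraries (-2.34 ± 0.67, adjusted p = 0.305). After CCl4 the groups overlapped for all 36 tested members, whereas 1.72% of all genes were higher and 1.94% lower without overlap.

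CCl4 in knockout macrophages lowered 1 of 36 members, Gsr, and raised 0, against 0.111% of all genes lower and 0.767% higher. In these libraries the neutrophil marker sum was 121.9 to 214.3 CPM after CCl4 and 191.7 to 317.4 CPM without it, and its part in the fall of Gsr was not tested. Gsr was at 17.6, 21.1, 23.3 and 29.5 CPM after CCl4 and 55, 98.3, 100.4 and 102 CPM without it, with no overlap, and fell by 1.97 ± 0.34 (adjusted p = 0.0102). In control macrophages the same gene was at 16.4, 30.1, 37.2 and 48.2 CPM after CCl4 and 30.2, 30.3, 39.6 and 64.8 CPM without it (-0.39 ± 0.33, adjusted p = 0.471). The interaction called 0 members by edgeR, 0 by DESeq2 and 12 of 36 at an unadjusted p under 0.05 (12.3% of all genes), against 0.0647% of all genes called higher and 0.129% lower. Its smallest adjusted p was that of Gstm6 (3.94 ± 1.04, adjusted p = 0.11), followed by Slc7a11 (-3.43 ± 0.93, adjusted p = 0.117), and Gsr was at -1.59 ± 0.47, adjusted p = 0.171. Hepatocyte markers had a median interaction of 2.59, with 0 of 10 called, and the part of hepatocyte RNA in the members' interaction values was not tested. Leaving out macrophage mouse 11, 12 or 18 after CCl4 gave 1 call each, of Gstt3, Mgst1 and Gstm7. No gene of the other pathway lists was called in the knockout comparisons, in CCl4 of knockout mice or in the interaction.

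**Figure D5:**
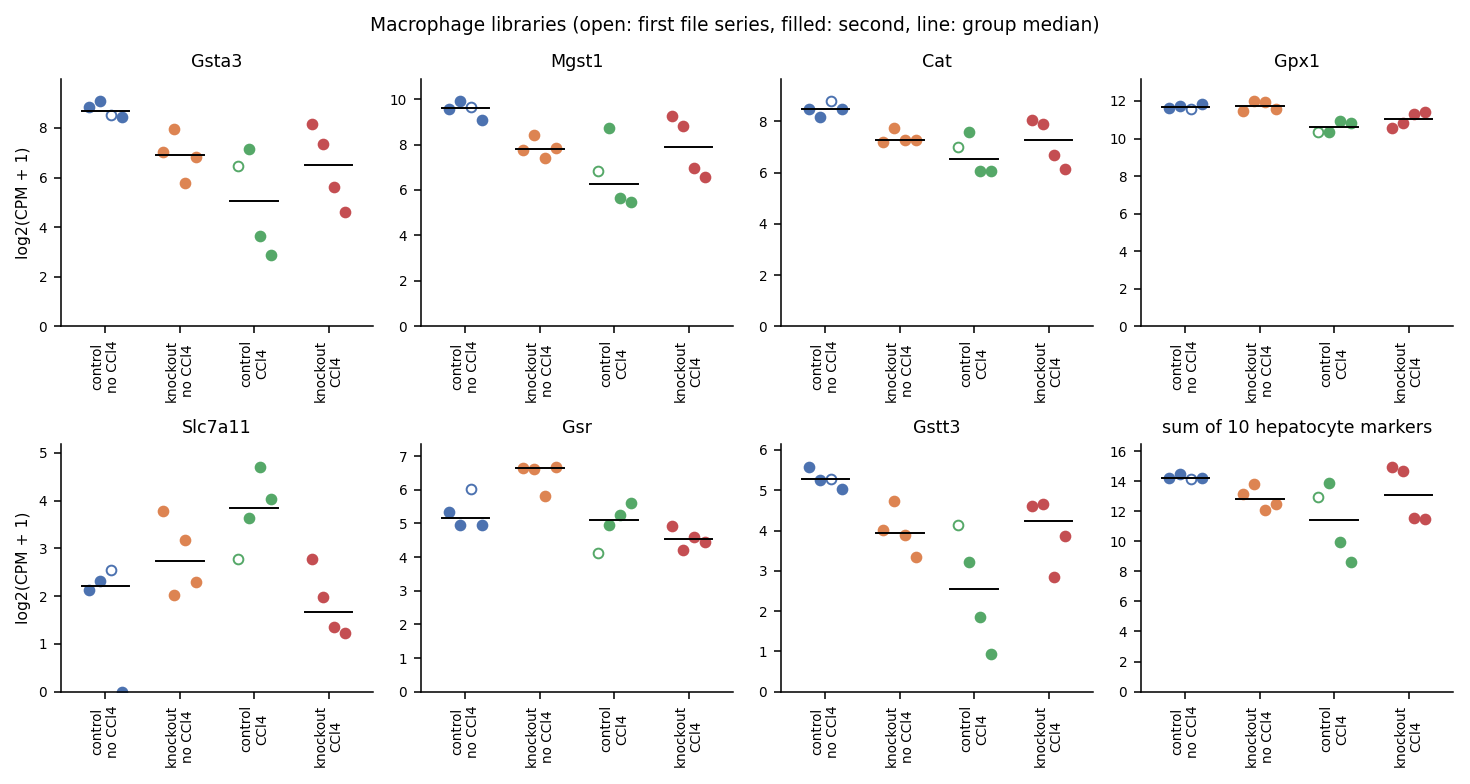
Level of 7 members and the sum of 10 hepatocyte markers, as log2(CPM + 1), in each of the 16 macrophage libraries by group; open points are first-series libraries, filled points second-series ones and lines group medians. After CCl4 the hepatocyte marker sum runs from 393 to 31790.0 CPM, Slc7a11 reaches its highest values in control mice after CCl4, and 3 of the 4 knockout libraries without CCl4 stand above all others for Gsr.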

How the data were processed

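Liver hepatocytes (18 libraries) and macrophages (16 libraries) were profiled with 3′ tag RNA sequencing. The authors deposited 1 table of raw counts per gene symbol for each cell type. Per the submitters' processing notes, Trimmomatic 0.39, HISAT2 2.1.0 and the mouse build GRCm38 were used, while the counting program and its strand option were not given in the sources used here. Without a known strand setting, reads of overlapping and antisense genes cannot be told apart.

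Groups came from the genotype and treatment labels, and mouse numbers name separate mice. Each table was filtered with filterByExpr, scaled by TMM and fitted over its 4 groups with edgeR 4.0.16 (R 4.3.3, glmQLFit and glmQLFTest), with p-values adjusted by Benjamini and Hochberg over all 9679 or 10815 genes tested and a threshold of 0.05. Standard errors are approximate, from the fold change and its F statistic. Macrophages and hepatocytes of uninjured control mice were fitted together on the 22586 genes found in both tables, of which 9476 were tested. Scripts were tested on simulated data. Members, lists and tests were chosen with earlier results of these data known. Values are given for members called in at least 1 comparison, and from each other list for up to 4 called genes of lowest p.

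The file series were read from the deposited sample sheets, where file numbers jump from 14 to 25. Of the 41 members, Gstp1 and Gstp2 were not analysed here, and 0 columns of samples outside the series were used. Alternatives were RLE size factors, no filter, DESeq2 1.42.0, the file series as a term or the second series alone, the conflicting library moved, each library left out, the mouse number as a block, and, added after seeing the data, edgeR's earlier quasi-likelihood method. Precision is set by depth: at 931496 counts in the shallowest hepatocyte library and 596380 in the shallowest macrophage library, members near the floor of 3 counts carry counting error beside the spread between mice.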

Additional observations from a re-analysis of the deposited data

Results flagged for a closer look

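In 8 of the 129 member-by-group sets of 4 to 10 libraries that were examined, 1 library stood apart from the others of its group by Dixon's criterion, which chance alone meets in about 1 in 20 sets. Gstm3 reached 2585 CPM in knockout hepatocytes of mouse 20 without CCl4, where the next highest of the 5 libraries was 336 CPM. Keap1 was also highest in that library, at 51.8 CPM against 40.3 CPM for the next. Gsr was lowest in the knockout macrophages of the same mouse without CCl4, at 55 CPM against 98.3 CPM for the next. Gstt3 was highest in knockout hepatocytes of mouse 21 without CCl4, at 269 CPM against 164 CPM. Gstm2 was lowest in control hepatocytes of mouse 19 without CCl4, at 13.8 CPM against 44.6 CPM, and in knockout hepatocytes of mouse 14 after CCl4, at 12.4 CPM against 34.1 CPM. Gpx1 was lowest in knockout hepatocytes of mouse 18 after CCl4, at 1024 CPM against 1582 CPM. Slc7a11 was at 0 CPM in control macrophages of mouse 9 without CCl4, where the next was at 3.35 CPM.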

How the results depend on the processing

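The count of members called between knockout and control hepatocytes without CCl4 was 14 over all libraries, 2 with the file series as a term, 1 in the second series alone, and 8 to 15 with 1 library left out (9 without control mouse 2 or 8, 8 without knockout mouse 20). For CCl4 in control macrophages it was 8, against 15 with no filter on low counts, 4 with edgeR's earlier method, 5 with the conflicting library moved (Gsta3, Gstk1 and Mgst1 were lost), and 3 to 11 with 1 library left out. With the conflicting hepatocyte library moved, 16 members were called for CCl4 in control mice (main 21), 13 for the knockout without CCl4 (12 of the main 14), 0 for the knockout after CCl4 and 16 for CCl4 in knockout mice (main 14). With no filter, macrophages gave 5 calls for the knockout without CCl4 (0 with the filter), 4 after CCl4 (0), 3 for CCl4 in knockout mice (1) and 12 for the interaction (0). The cause was not tested. Shares of all genes called are not given for the alternative fits, so these counts do not show a change particular to the members. With 1 library left out the count was 16 to 22 (main 21) for CCl4 in control hepatocytes, 0 to 2 for the knockout after CCl4, where 2 were called without control mouse 16 and 1 without knockout mouse 20, 8 to 15 (main 14) for CCl4 in knockout hepatocytes, and 0 to 1 for the macrophage interaction. Over the same omissions 0 members were called in the hepatocyte interaction and in both macrophage knockout comparisons, 1 for CCl4 in knockout macrophages, and 32 to 33 between macrophages and hepatocytes. No direction of a called member reversed under the alternatives run. With DESeq2, 87 of the 89 calls it could test stayed past the threshold. With the mouse number as a replicate block, which pairs the macrophages and hepatocytes of the same animal, 30 members were called between cell types against 33. The second series alone was not run where it holds 1 control library after CCl4. Precision is limited by 1 series holding no knockout library and by 3 control hepatocyte libraries after CCl4.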
